A study of Mus musculus with 18 samples.

Results

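MHC class II antigen presentation was followed here through 7 genes, H2-Aa, H2-Ab1, H2-Eb1, Cd74, Ciita, H2-DMa and H2-DMb1, out of 55469 gene IDs in the deposited tables. Members were chosen by symbol, by matching each Ensembl gene ID to the GENCODE mouse annotation. No cut on measured values was applied, but earlier results of these data were known when the list was made. Each of the 7 symbols matched 1 row in each of the 4 tables, and all 7 passed the filter on low values in all 4 comparisons. Total RNA came from the lateral and ventral lobes of the prostate of 18 males of the labelled strain C56NL/6N. Every mouse, controls included, carried 1 copy of TRAMP, a transgene in which the probasin promoter drives the SV40 large and small T antigens in prostatic epithelium. WT-TRAMP mice had the genotype ELAC2+/+ / TRAMP +/-. KO-TRAMP mice (ELAC2-/- / TRAMP +/-) had lost Elac2, the mitochondrial and nuclear tRNA 3' end processing enzyme, through a Cre recombinase that the probasin promoter also restricts to prostatic epithelium, so that the leukocytes and stroma of these lobes were not targeted. A537T-TRAMP mice (ELAC2A537T / TRAMP +/-) carried the missense allele in every cell, in both copies. Each line was sampled at 10 and at 30 weeks of age, with 3 mice in each of the 6 groups, and each mutant line was compared with the WT-TRAMP mice of the same age within 1 table.

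MHC class II molecules present peptides from endosomes to CD4+ T cells. The alpha chain H2-Aa pairs with the beta chain H2-Ab1 to form I-A, and H2-Eb1 is the beta chain of I-E, whose alpha chain is not made in mice of the C57BL/6 background. Cd74, the invariant chain, holds the peptide groove in newly made dimers, and H2-DMa and H2-DMb1 form H2-M, which exchanges the remnant of Cd74 for peptides. Ciita is the co-activator that switches the class II genes on, by docking onto a complex that Rfx, Creb and Nfy factors build on the W/S, X and Y boxes of their promoters. Dendritic cells, macrophages and B cells express these genes constitutively or on activation, and interferon gamma induces them in many other cells.

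The X and Y boxes lie close to the start of the class II genes, and the promoter table from RefSeq (GRCm38.p6, 250 bases before to 50 after each start) held windows of 4 members, of which 3 had both. The stretches from 120 to 21 bases before the start are printed below because they carry the elements through which Ciita acts on these genes. Capitals mark a match to CTNGNAACT within the X box and to TGATTGG, the Y box with its inverted CCAAT:
H2-Aa (chr17:34287844-34287943, - strand): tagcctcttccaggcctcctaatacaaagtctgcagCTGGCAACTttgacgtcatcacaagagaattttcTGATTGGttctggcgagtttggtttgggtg
H2-Eb1 (chr17:34305747-34305846, + strand): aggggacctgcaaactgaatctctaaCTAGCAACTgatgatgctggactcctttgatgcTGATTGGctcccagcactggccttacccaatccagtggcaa
H2-DMb1 (chr17:34153071-34153170, + strand): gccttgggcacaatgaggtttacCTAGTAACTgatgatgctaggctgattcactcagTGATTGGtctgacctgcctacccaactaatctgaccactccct
In each stretch the X match preceded the Y match on the gene's own strand, with 25 bases between them in H2-Aa, 24 in H2-Eb1 and 25 in H2-DMb1. Both strands of every window were searched, and the letters of the X match were chosen after these windows had been seen, so the matches are a description. Among all 32851 promoter windows, 4.1% held the X match, 7.817% held the Y match, and 5 windows (0.01522%) held an X match followed within 40 bases by a Y match on the same strand. The other two of those 5 windows belonged to BC051142 on chr17 and 1700048F04Rik on chr5. The 2 windows of H2-DMa held neither match, which says only that these letters are not in those windows. H2-Ab1, Cd74 and Ciita were not among the 4 members with a window. The H2-DMb1 stretch was placed by its RefSeq start and lies almost wholly inside the GENCODE span of that gene, given below.

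On GRCm38, 5 of the members lie in the MHC on chr17. H2-DMa (chr17:34119541-34139101, + strand), H2-DMb1 (chr17:34153072-34160230, +), H2-Ab1 (chr17:34257689-34269419, +), H2-Aa (chr17:34282744-34287823, -) and H2-Eb1 (chr17:34305867-34316674, +) follow each other in that order. Cd74 lies at chr18:60803848-60812652 (+) and Ciita at chr16:10480059-10528418 (+). Reads were counted by strand, which separates Ciita, H2-DMa and H2-Eb1 from the genes that overlap them on the opposite strand (Dexi for Ciita, Brd2 among others for H2-DMa, Gm20513 for H2-Eb1). Strand does not separate CR974462.3, which overlaps H2-DMa over 591 bases on the same strand, or Mir5107, which overlaps Cd74 over 88 bases. H2-DMb1 shares 31.4% of its 31-base words with H2-DMb2, its near copy, so the split of reads between those 2 genes is uncertain. H2-DMb2 itself had at most 15 reads in any library.

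The libraries held 9380174 to 14830104 reads assigned to genes, recovered from the deposited values, which were whole multiples of 1 read's worth within 0.01 reads. The prostatic identity of the tissue was plain in every library, where a list of 10 luminal genes summed to 1840 to 5605 RPM (reads per 1000000 reads assigned to genes). Libraries were not uniform in what else they held. Seminal vesicle transcripts took more than 1% of the reads in 7 libraries, numbers 5, 6, 9, 10, 12, 13 and 15 in the table headers, with a highest value of 9.05% in library 5 (A537T-TRAMP, 10 weeks). Neuroendocrine transcripts summed to 1377 and 856 RPM in KO-TRAMP libraries 17 and 18 at 30 weeks, against 2.85 in library 16 of the same group and at most 110 in any other library. Adipose transcripts at 30 weeks summed to 31.4 to 92.1 RPM in WT-TRAMP, 4.27 to 45.0 in KO-TRAMP and 2.19 to 9.69 in A537T-TRAMP. The part of adipose content in the comparisons was not tested. Whole-gene reads of Elac2 overlapped between KO-TRAMP and WT-TRAMP, at 23.0 to 27.3 against 24.6 to 31.4 RPM at 10 weeks and 21.5 to 24.7 against 22.0 to 27.2 RPM at 30 weeks. The deposited gene totals do not resolve the deleted exon and hold the undeleted cells of the lobes, so they do not check the knockout labels. The headers number the libraries without naming the mouse, so libraries are named by these numbers below.

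The invariant chain was the most abundant member per length. Over all 18 libraries the median level was 49.7 RPM per kilobase of exon for Cd74, 16.4 for H2-Eb1, 12.8 for H2-Aa and 10.5 for H2-Ab1. The H2-M chains were lower, with medians of 3.61 for H2-DMb1 and 1.90 for H2-DMa on the same scale. Ciita was the lowest at 0.54 and rested on 23 to 145 reads per library, while Cd74 rested on 253 to 1793. Counting error is therefore wider for Ciita, H2-DMa (36 to 93 reads) and H2-DMb1 (22 to 197 reads) than for the other members.

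**Figure D1:**
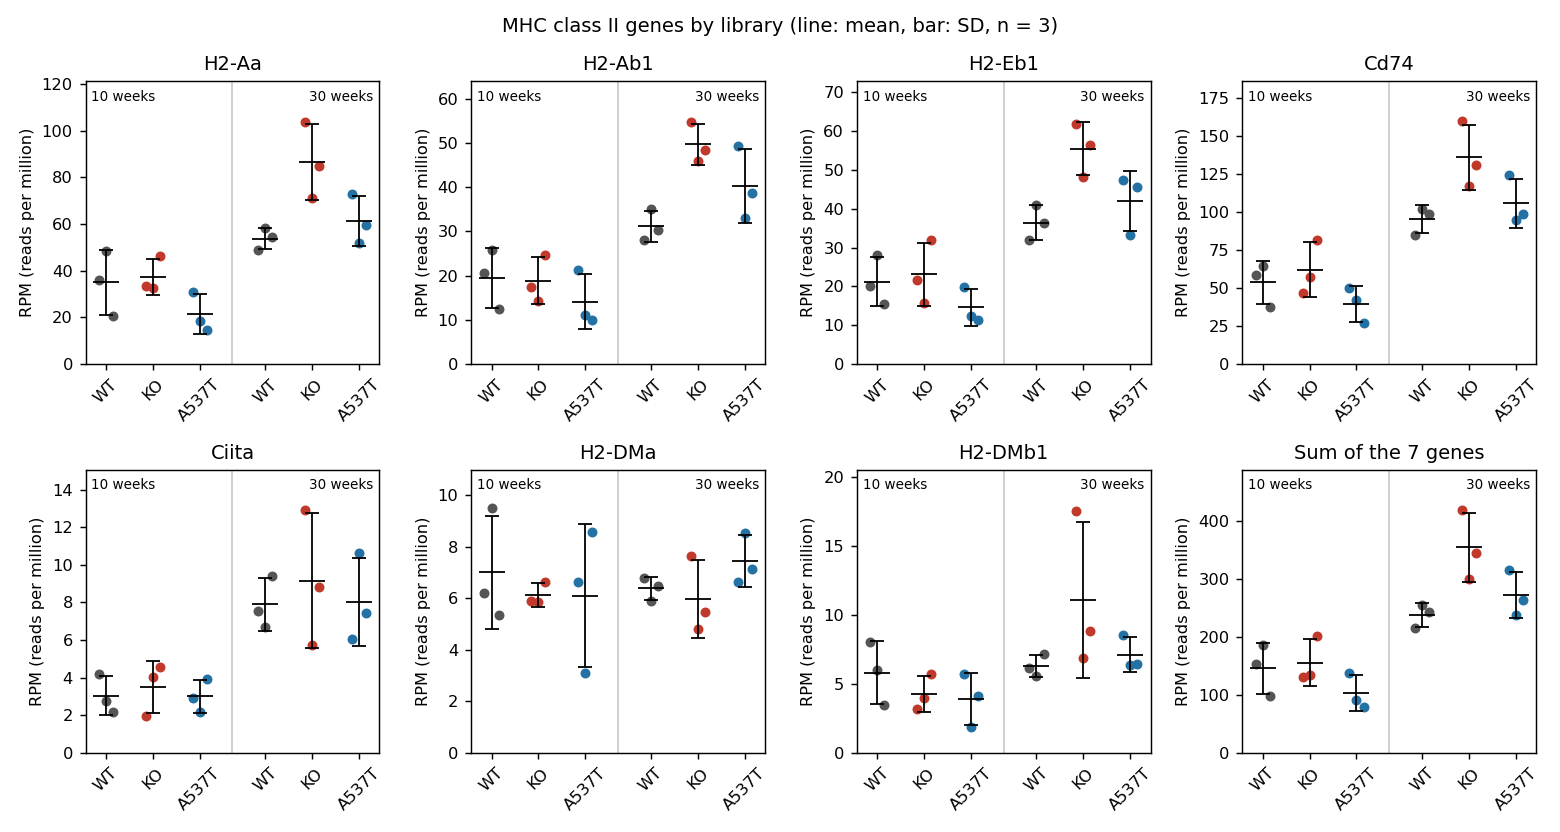
RPM (vertical axis, starting at 0) of the 7 MHC class II genes and of their sum in each library of the 6 groups; points are libraries, horizontal lines means and bars SD (n = 3). All 9 libraries of 30 weeks lie above all 9 of 10 weeks in the sum, whereas the H2-DMa panel shows no such split.

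The 7 genes together were at a higher level in older prostates. Their sum ranged from 79.4 to 202 RPM over the 9 libraries of 10 weeks (median 134) and from 215 to 418 over the 9 of 30 weeks (median 263), a ratio of medians of 1.97. The 2 ages did not overlap in the sum, nor in H2-Aa (ratio of medians 1.82), H2-Ab1 (2.21), Cd74 (2.03) or Ciita (2.58). Of the 16050 genes with a mean of at least 1 RPM, 0.96% had all 9 libraries of 30 weeks above all 9 of 10 weeks, and the median gene had a ratio of 1.08. H2-Eb1, at a ratio of 2.28, had 8 of 9 older libraries above every younger one. The H2-M chains did not share this split, since 3 of 9 older libraries of H2-DMb1 (ratio 1.67) and 0 of 9 of H2-DMa (ratio 1.07) lay above all younger ones. The summed level of 10 macrophage markers also separated the ages, at 94.9 to 165.7 RPM at 10 weeks and 165.9 to 338 at 30 weeks, and that of dendritic cell markers was 9.22 to 18.2 and 17.9 to 88.0 RPM. Their part in the difference between the ages was not tested. These ages were normalised in separate tables and are set side by side here as RPM, with no test. In whole lobes, fewer cells of a type and less RNA per cell cannot be told apart.

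Ordered by the mean of the sum, the groups ran from A537T-TRAMP at 10 weeks (103 ± 30.9 RPM, SD, n = 3) through WT-TRAMP (145 ± 44.5) and KO-TRAMP (155 ± 40.3) at 10 weeks to WT-TRAMP (237 ± 20.6), A537T-TRAMP (272 ± 39.2) and KO-TRAMP (354 ± 59.8) at 30 weeks. Neighbours in this order overlapped in their libraries except at the step from KO-TRAMP at 10 weeks to WT-TRAMP at 30 weeks. H2-Aa, Cd74 and Ciita had the same order of groups and the same single step without overlap, and H2-Ab1 differed only in that KO-TRAMP (18.9 ± 5.32) came before WT-TRAMP (19.6 ± 6.77) at 10 weeks, so that its step ran between the WT-TRAMP groups. In H2-Eb1 the step without overlap was instead the last one, from A537T-TRAMP at 42.1 ± 7.72 to KO-TRAMP at 55.5 ± 6.94 RPM at 30 weeks. No neighbouring groups were separated in H2-DMa or H2-DMb1.

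The comparison of KO-TRAMP with WT-TRAMP at 30 weeks asked which transcripts differ in the older prostate when the epithelium lacks Elac2. The classical chains and the invariant chain were all higher in the KO-TRAMP libraries, by 1.35 to 1.52 fold, but no member passed the adjusted threshold. H2-Ab1 had normalised counts of 321, 411 and 353 in WT-TRAMP libraries 10, 11 and 12, and of 634, 496 and 526 in KO-TRAMP libraries 16, 17 and 18. Every KO-TRAMP library thus lay above every WT-TRAMP library, with library 16 the highest. The log2 fold change was 0.61 (SE 0.15, 95% interval 0.24 to 0.98), with an unadjusted p of 0.0070 and a Benjamini-Hochberg adjusted p of 0.290 in limma. Its partner in I-A, H2-Aa, had 558, 683 and 630 in WT-TRAMP and 1200, 770 and 924 in KO-TRAMP, again without overlap. Fitted by limma, H2-Aa was 0.61 higher on the log2 scale (SE 0.19, unadjusted p = 0.016, adjusted p = 0.327). H2-Eb1, the beta chain of I-E, had 364, 482 and 423 against 716, 520 and 614.1, also without overlap. limma put it 0.54 higher on the log2 scale (SE 0.17, unadjusted p = 0.018, adjusted p = 0.332). Cd74 had 971, 1201 and 1147 in WT-TRAMP and 1845, 1267 and 1424 in KO-TRAMP, with the groups close to touching at libraries 11 and 17. In limma this was 0.44 on the log2 scale (SE 0.17, unadjusted p = 0.041, adjusted p = 0.364).

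The other 3 members overlapped between the groups at 30 weeks. H2-DMb1 was at 70.5, 65.3 and 83.2 in WT-TRAMP and at 203, 74.3 and 96.1 in KO-TRAMP, so that its log2 fold change of 0.63 (SE 0.39) rested largely on library 16 and was 0.22 without it. H2-DMa, its partner in H2-M, had 77.2, 69.1 and 75.2 against 88.5, 51.7 and 59.5 (log2 fold change -0.18, SE 0.26). Ciita, the class II co-activator, had 86.2, 78.7 and 109 against 149, 62 and 96.1. Its log2 fold change was 0.09 (SE 0.35, 95% interval -0.76 to 0.94). That interval is wide enough to hold the changes fitted for the chains.

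Across the table, 6 of 7 members were above 0, beside 50.9% of all genes, and 0 of 7 members were called at an adjusted p under 0.05, beside 0.213% of the 16900 genes tested. The unadjusted p was under 0.05 for 4 of the 7 members, each of them higher, beside 7.7% of all genes with such a p and a higher level. The same 4 members were those whose groups did not overlap, beside 10.8% of all genes without overlap and higher. The members' median log2 fold change was 0.54, against 0.01 over all genes tested. On the recovered reads, edgeR called 0 members and DESeq2 called H2-Ab1 (log2 fold change 0.60, adjusted p = 0.0366), a tool that called 4.76% of all genes. Without library 16 the members' median was 0.29. The members higher at an unadjusted limma p under 0.05 numbered 4 with all libraries. Their number was 1 without library 10, 2 without library 12 or 18, 3 without library 11 or 16, and 5 without library 17. Over all genes, 809 of 16816 were higher at such a p without library 10. Without library 12 they were 656 of 16917, and without library 18 they were 532 of 16875. The count was 788 of 16961 without library 11, 3664 of 16950 without library 16 and 737 of 16748 without library 17. Without WT-TRAMP libraries 10 and 12, which carried seminal vesicle reads, the median was 0.34 and no member had such a p, in a fit with 1 WT-TRAMP library. Without the neuroendocrine libraries 17 and 18 the median was 0.77, in a fit with library 16 as the only KO-TRAMP library.

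**Figure D2:**
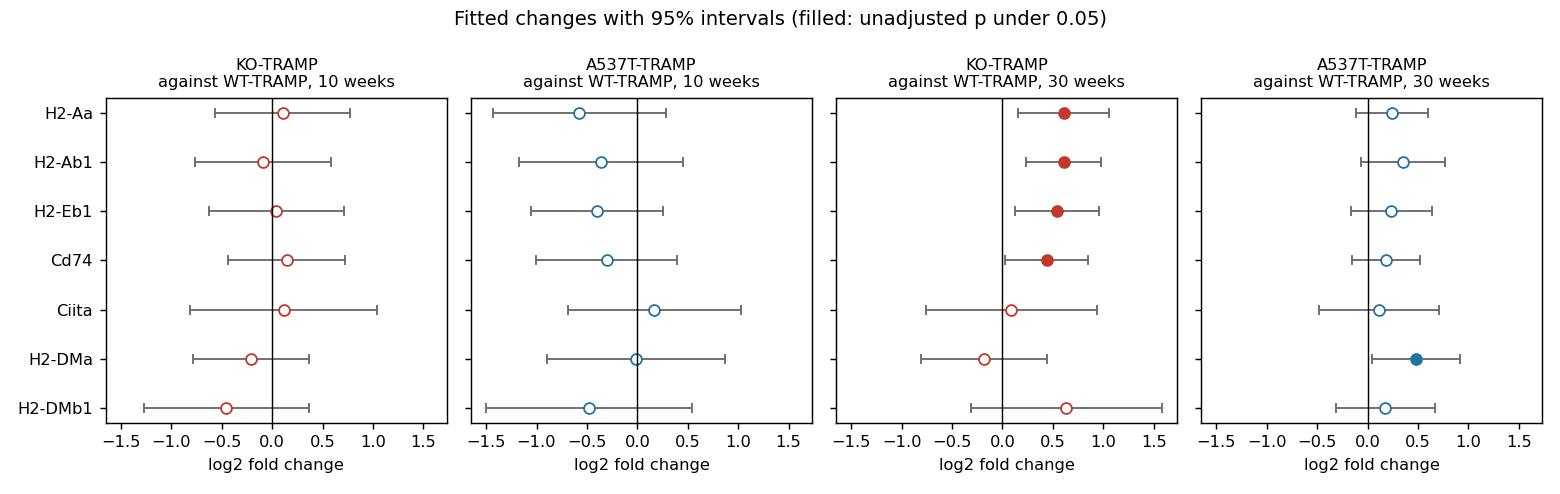
Fitted log2 fold changes (horizontal axis) of the 7 genes in each mutant line against WT-TRAMP at 10 and 30 weeks, with 95% intervals from limma; filled points have an unadjusted p under 0.05. At 30 weeks H2-Aa, H2-Ab1, H2-Eb1 and Cd74 in KO-TRAMP and H2-DMa in A537T-TRAMP have intervals above 0; no adjusted p was under 0.05.

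A537T-TRAMP at 30 weeks shared its WT-TRAMP libraries with the knockout comparison. All 7 members had a log2 fold change above 0, beside 50.0% of the 16261 genes tested, with a median of 0.24 against 0.00 over all genes and a range from 0.11 (Ciita) to 0.48 (H2-DMa). The median was 0.13 without library 13 and at most 0.35, without library 14. H2-DMa was the member whose groups did not overlap, at 63.2, 55.6 and 60.8 in WT-TRAMP and 76.2, 97.8 and 78.7 in A537T-TRAMP. This separation depends on the table, since the same WT-TRAMP libraries held 60, 62 and 57 reads of H2-DMa there and 69, 72 and 66 in the knockout table, from which RPM was taken, and in RPM the groups overlapped (5.89 to 6.77 against 6.62 to 8.55). Its log2 fold change of 0.48 (SE 0.19) had an unadjusted p of 0.037 and an adjusted p of 0.684 in limma. Of all genes, 3.98% had such an unadjusted p and were higher, and 7.36% had groups without overlap and were higher. H2-Ab1 had 316, 402 and 346 against 568, 377 and 426, where library 13 was above all others and library 14 lay inside the WT-TRAMP range. Its log2 fold change was 0.35 (SE 0.18, 95% interval -0.06 to 0.76). H2-Aa, at 0.24 (SE 0.15), H2-Eb1, at 0.24 (SE 0.17), and Cd74, at 0.18 (SE 0.14), overlapped between the groups as well. In this comparison limma called 0 of 7 members and 0% of all genes, with 1173 genes at an unadjusted p under 0.05. edgeR likewise called 0 genes of the table, and DESeq2 called 165, none of them a member.

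At 10 weeks the groups overlapped in every member of both lines. Of all genes, 5.77% were without overlap and higher and 6.26% without overlap and lower in KO-TRAMP, and 6.92% and 6.53% in A537T-TRAMP. In KO-TRAMP the fitted changes ran from -0.45 (H2-DMb1) to 0.15 (Cd74), with a median of 0.04 and 4 of 7 above 0, beside 48.9% of all genes. That median lay between -0.22 (without library 3 or library 9) and 0.15 (without library 2) when single libraries were left out. H2-Ab1, for example, had 235, 302 and 145 in WT-TRAMP and 192, 164 and 274 in KO-TRAMP, so both groups spanned close to the same range. No member had an unadjusted p under 0.05, which 6.64% of the 15451 genes did, and limma called 0 of 7 members beside 0.0129% of all genes. In A537T-TRAMP at 10 weeks 6 of 7 members were below 0, with a median of -0.36, while 49.1% of all 15438 genes were above 0. H2-Aa had the lowest value, -0.57 (SE 0.36, 95% interval -1.43 to 0.28), from 366, 505 and 216 in WT-TRAMP and 320, 239 and 158 in A537T-TRAMP. Again no member had an unadjusted limma p under 0.05, beside 7.89% of all genes, and 0 of 7 were called, beside 0.00648%. edgeR and DESeq2 called 0 members in either comparison. The 2 lowest A537T-TRAMP libraries of H2-Aa, numbers 5 and 6, were the group's libraries with over 1% seminal vesicle reads. With single libraries left out the median ran from -0.14 (without library 2) to -0.60 (without library 3), with -0.22 without library 6, -0.23 without library 1 and -0.58 without library 4. Without both libraries 5 and 6 the median of the members was 0.05, in a fit with 1 A537T-TRAMP library.

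An interaction term asked whether a line's difference from WT-TRAMP was itself different between the ages. For KO-TRAMP the difference at 30 weeks minus that at 10 weeks had a median of 0.50 over the members, and for A537T-TRAMP a median of 0.64. With each library left out in turn, the first ran from 0.23 (without library 2) to 0.70 (without library 3), with 0.27 without library 8, and the second from 0.40 (without library 2) to 0.84 (without library 3). In each, 6 of 7 members were above 0, beside 50.3% of all genes for KO-TRAMP and 50.5% for A537T-TRAMP. The highest value in KO-TRAMP was that of H2-DMb1, 1.09 (SE 0.56, limma unadjusted p = 0.077), and the highest in A537T-TRAMP that of H2-Aa, 0.82 (SE 0.43, limma unadjusted p = 0.083). With all libraries no member had an unadjusted p under 0.05 in either interaction, beside 13.1% of all genes for KO-TRAMP and 6.36% for A537T-TRAMP. limma called 0 members and 0% of all genes in both, edgeR called 0 genes in both, and DESeq2 called 389 and 50 genes, none of them a member. Such an unadjusted p was reached by 3 members for KO-TRAMP without library 3, by 2 without library 9 and by 1 without library 17. Over all genes it was reached in those fits by 2342 of 16498, 1890 of 16474 and 1553 of 16258, in that order. For A537T-TRAMP it was reached by 3 members without library 3 or library 4. Over all genes it was then reached by 1293 of 15996 without library 3 and by 2978 of 16010 without library 4. Without the libraries with over 1% seminal vesicle reads the A537T-TRAMP median was -0.01. That fit held 1 A537T-TRAMP library at each age and 1 WT-TRAMP library at 30 weeks.

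Within their tables, the chains and Cd74 moved together from library to library, and Ciita was little related to them. Each library's value was expressed as its log2 deviation from the WT-TRAMP mean of its table, and correlations were taken over the 18 libraries, which share their tables' WT-TRAMP means. These deviations leave out the difference between the ages. In that difference Ciita was higher at 30 weeks (ratio of medians 2.58), as were H2-Aa, H2-Ab1 and Cd74. Pearson's r was between 0.87 and 0.95 in the 6 pairs among H2-Aa, H2-Ab1, H2-Eb1 and Cd74. H2-DMb1 was related to those 4 genes with r of 0.63 to 0.76. Ciita was related to them with r of 0.01 to 0.21, and H2-DMa with r of -0.03 to 0.20, and both rest on few reads. Library 6 (A537T-TRAMP, 10 weeks) shows the split, with deviations of -1.11 in H2-Aa and -0.88 in Cd74 and of 0.53 in Ciita.

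**Figure D3:**
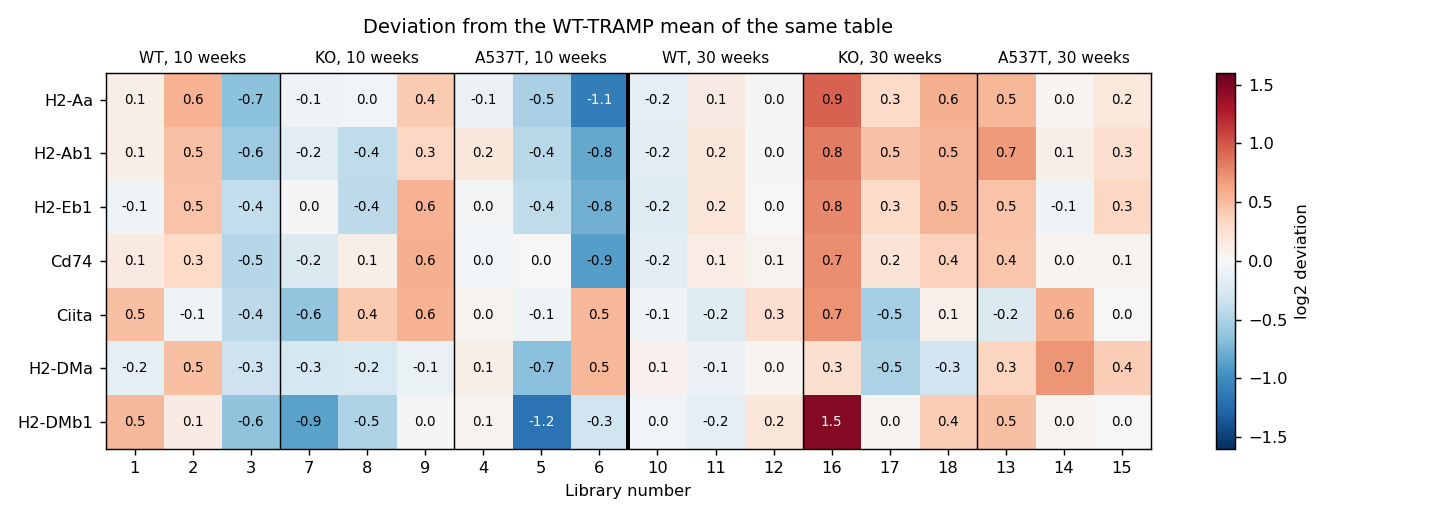
log2 deviation of each gene (rows) from the WT-TRAMP mean of its table in each of the 18 libraries (columns, by group and header number); red is above and blue below the mean. Library 16 is above 0 in all 7 genes, and H2-Aa, H2-Ab1, H2-Eb1 and Cd74 are on one side of 0 except in libraries 1, 4, 5, 8, 12 and 14, where their signs are mixed.

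The proportions between members were compared library by library. Per kilobase, H2-Aa was between 0.98 and 1.54 times H2-Ab1 over the libraries, with a group mean of 1.37 in KO-TRAMP at 10 weeks. H2-Eb1 was between 1.24 and 1.71 times H2-Ab1, and Cd74 between 3.63 and 6.08 times. The H2-M partners were less even, with H2-DMa between 0.21 and 1.01 times H2-DMb1. H2-DMa over H2-Ab1 spanned from 0.078 to 0.635, an 8.18-fold range, with group means between 0.36 in A537T-TRAMP at 10 weeks and 0.089 in KO-TRAMP at 30 weeks. Ciita over H2-Ab1 spanned from 0.029 to 0.105, with a mean of 0.049 in KO-TRAMP and 0.069 in WT-TRAMP at 30 weeks.

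Genes whose pattern was most like that of the 7 members were sought among 8956 protein-coding genes with a mean of at least 100 in every table, by Pearson's r with the members' mean deviation over the 18 libraries. The first was Unc93b1 (r = 0.90), the chaperone that carries nucleic acid sensing Toll-like receptors to endosomes. Laptm5 (0.87), a lysosomal protein of leukocytes, and the complement protease C1ra (0.84) came next. Taf1d (0.84), Mgea5 (0.83), Ptprc (0.83), which encodes the leukocyte antigen CD45, Papolg (0.83), Sec22a (0.83), S1pr2 (0.83) and Slfn5 (0.82) followed. These are the highest of many correlations over libraries that share their controls.

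The remaining class II chains were close to absent. H2-Ea-ps, the I-E alpha chain pseudogene of this background, had 0 reads in all 18 libraries, where a count of 0 allows up to 3 reads per library. H2-Oa, H2-Ob and H2-Eb2 had at most 5, 20 and 5 reads. At 30 weeks in KO-TRAMP, 2 of 5 such rows passed the filter on low values and neither was called by limma, edgeR or DESeq2, with log2 fold changes of 0.30 (SE 0.42) for H2-Ob and -1.10 (SE 0.55) for H2-DMb2, which was named after its value was seen.

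The factors that sit on class II promoters differed little in the same comparison. All 7 of Rfx5, Rfxank, Rfxap, Nfya, Nfyb, Nfyc and Creb1 were measured, 5 were above 0 with a median of 0.14, and none was called by limma, edgeR or DESeq2 or had an unadjusted limma p under 0.05. Creb1, the most abundant, was at 0.24 (SE 0.16). Of the interferon gamma axis, 7 of 8 genes were tested with a median of -0.22. Ifng itself had at most 4 reads in any library. Of the myeloid and lymphoid regulators, all 3 were tested and none was called by the 3 tools or had an unadjusted limma p under 0.05, and Irf8, the most abundant, was at -0.06 (SE 0.26).

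Proteases and other endosomal genes that prepare class II ligands were tested as 9 genes, of which 7 were above 0 with a median of 0.27. limma and edgeR called none, and DESeq2 called 4, beside 4.76% of all genes. In the same 4 the unadjusted limma p was under 0.05, all higher, beside 7.7% of all genes. The values of Ctss, the protease that completes the cleavage of Cd74, were 46.4 to 50.1 RPM in WT-TRAMP and 89.1 to 104 in KO-TRAMP (limma: 0.91 on the log2 scale, SE 0.12, adjusted p = 0.068). Lgmn, an asparaginyl endopeptidase, was at 0.76 (SE 0.10, adjusted p = 0.073) and Ctsb at 0.65 (SE 0.09, adjusted p = 0.079). Those 3 and March1, the ubiquitin ligase that removes class II from the surface, at 0.87 (SE 0.20), were named after their values were seen. Ctsd, the most abundant of the list, was at -0.03 (SE 0.15). Of 4 costimulatory genes, 2 were above 0 and none was called by the 3 tools or had an unadjusted limma p under 0.05, and Icosl, the most abundant, was at -0.56 (SE 0.24).

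The class I pathway lay on the other side of 0 in the older KO-TRAMP prostates. None of the 9 genes tested was above 0, with a median of -0.42, and none was called by limma, edgeR or DESeq2, while 2 had an unadjusted limma p under 0.05 and were lower, beside 5.84% of all genes. Those were Nlrc5, the class I counterpart of Ciita, at -1.19 (SE 0.37, adjusted p = 0.330), and B2m, the class I light chain, at -0.75 (SE 0.31, adjusted p = 0.368), both named after their values were seen. The summed class I level was 3302 to 3965 RPM in WT-TRAMP, and 3744 in library 16, 1698 in library 17 and 2502 in library 18 of KO-TRAMP. Libraries 17 and 18, the low ones, are the neuroendocrine ones. The sum of the 7 class II genes was 6.42 to 6.64% of the class I sum in WT-TRAMP and 11.2 to 17.7% in KO-TRAMP at 30 weeks, and 6.57 to 7.73% in A537T-TRAMP.

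Macrophage markers were higher in the KO-TRAMP libraries of 30 weeks, where limma called 1 of them. Of 10 macrophage markers, 9 were above 0 in KO-TRAMP at 30 weeks with a median of 1.02, beside 50.9% of all genes above 0. An unadjusted limma p under 0.05 was reached by 7, all higher, beside 7.7% of all genes. C1qb was called, beside 0.213% of all genes. C1qb, a chain of complement C1q made by tissue macrophages, was between 19.2 and 22.3 RPM in WT-TRAMP and between 43.8 and 47.5 in KO-TRAMP (limma: 1.09 on the log2 scale, SE 0.11, adjusted p = 0.0415). Its fitted change was at least 1.05 without any single library, and its adjusted p stayed under 0.05 only when library 16 was the one left out. Its adjusted p was also 0.053 under upper-quartile scaling, 0.218 without libraries 17 and 18 and 0.777 without libraries over 1% seminal vesicle reads, with fitted changes of 1.04, 1.09 and 1.11. In edgeR its adjusted p was 0.0508, so that edgeR called none of the 10. DESeq2 called 6 of the 10, all higher, beside 4.76% of all genes called in either direction. The summed macrophage level was 166 to 177 RPM in WT-TRAMP, 188 to 237 in A537T-TRAMP and 272 to 338 in KO-TRAMP at 30 weeks. Dendritic cell markers were above 0 in 7 of 7 tested genes (median 0.94). Batf3, Itgax and Cd209a, named after their values were seen, had an unadjusted limma p under 0.05, all higher, beside 7.7% of all genes. limma and edgeR called none of the dendritic cell markers and DESeq2 called Itgax, beside 4.76% of all genes. Their sum was 20.2 to 37.6 RPM in WT-TRAMP against 36.9 to 88.0 in KO-TRAMP, which overlapped. Library 16, with the highest class II sum, had the lowest dendritic sum of its group, and library 17, with the highest dendritic sum, had the lowest class II sum of the group. Libraries 17 and 18, with dendritic sums of 88.0 and 58.6 RPM against 36.9 in library 16, are the neuroendocrine ones. The part of neuroendocrine content in the dendritic sum was not tested.

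Lymphocyte markers did not share that direction. T cell markers were above 0 in 2 of 7 tested genes (median -0.44), and none was called by the 3 tools. Cd8a alone had an unadjusted limma p under 0.05, lower, beside 5.84% of all genes. The T cell sum overlapped between the groups, at 12.4 to 16.9 RPM in WT-TRAMP and 12.2 to 15 in KO-TRAMP. B cell markers were near 0 throughout, with a sum of at most 10.9 RPM in any library. Of 8 leukocyte markers 6 were above 0 (median 0.23), with Cd52, at 6.47 to 17.6 RPM in KO-TRAMP and 7.68 to 163 in WT-TRAMP, the lowest at -2.07 (SE 1.11). Cd53 and Laptm5 had an unadjusted limma p under 0.05, both higher, beside 7.7% of all genes. limma and edgeR called none of the 8, and DESeq2 called Cd52, which was lower, beside 4.76% of all genes called in either direction. Seminal vesicle reads were 4.35% in WT-TRAMP library 10 and 1.90% in WT-TRAMP library 12, and at most 0.267% in KO-TRAMP at 30 weeks. The summed leukocyte level was 250.6 RPM in library 10, 149.6 in library 12 and 96.3 in library 11, and 94.9 to 181.3 in KO-TRAMP. The part of seminal vesicle content in the Cd52 difference was not tested. Cd52, Cd53 and Laptm5 were named after their values were seen.

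Set against the macrophage sum, the class II sum was not higher in KO-TRAMP. The ratio of the 2 sums was 1.21, 1.53 and 1.39 in WT-TRAMP libraries 10, 11 and 12 at 30 weeks and 1.24, 1.10 and 1.06 in KO-TRAMP libraries 16, 17 and 18. It was 1.33, 1.27 and 1.38 in A537T-TRAMP at 30 weeks, and spanned from 0.68 to 1.36 over the 9 libraries of 10 weeks. The part of macrophage and dendritic cell content in the class II levels was not tested.

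**Figure D4:**
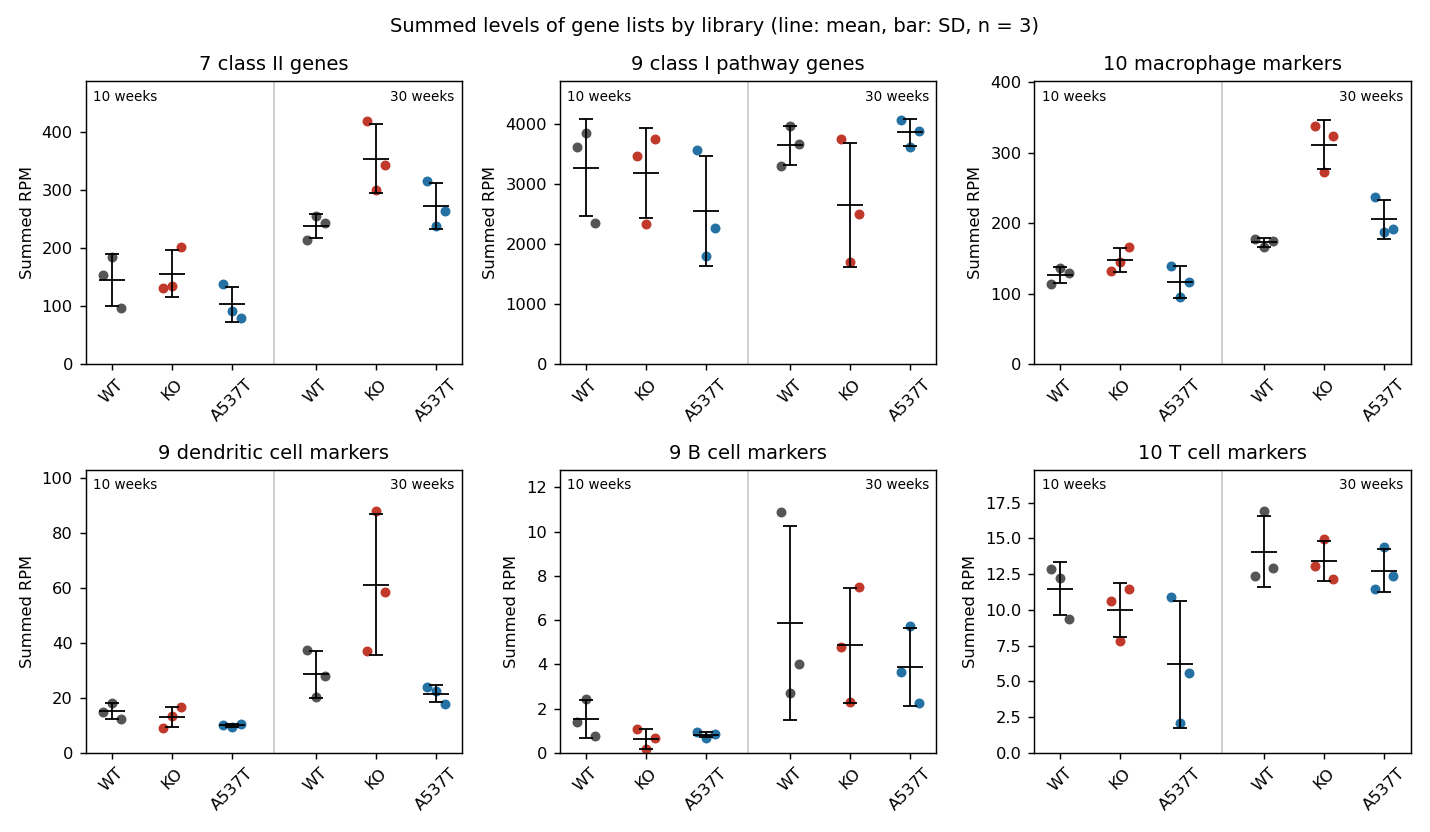
Summed RPM (vertical axes, each starting at 0) of the 7 class II genes and of 5 other gene lists in each library; points are libraries, horizontal lines means and bars SD (n = 3). At 30 weeks the KO-TRAMP libraries lie above WT-TRAMP in the class II and macrophage panels (272 to 338 against 166 to 177 for macrophages), while the B cell panel stays at or under 10.9 RPM.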

How the data were processed

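RNA from ventral and lateral prostate of 18 TRAMP mice was sequenced (6 groups, n = 3). Per the labels and the study's methods, the authors trimmed reads with Trim Galore 0.4.1 (cutadapt 1.18), aligned them with STAR 2.7.3a to GRCm38 with a GENCODE annotation, estimated counts by strand with Salmon and imported them with tximport. The deposited values used here are a signal: the authors' gene counts divided in DESeq2 1.26 by 1 size factor per library, set within each table of 6 libraries. WT-TRAMP libraries enter 2 tables, and 30.9 to 37.6% of genes had the same reads in both. Tables of the authors' comparisons (fold changes, their errors and s-values) were not used. Table columns carry only library numbers: columns present in both tables of an age were taken as WT-TRAMP and the others as the table's line.

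Values were tested as log2(value + 1), so fold changes are on that scale and understate those of low genes, with a minimum mean of 10, in limma 3.58.1 (trended empirical Bayes) across all genes with Benjamini-Hochberg adjustment (threshold 0.05, two-sided). Interactions were fitted with an intercept per table. Reads recovered from the steps (100% of values whole within 0.01 reads) gave RPM (reads per 1000000 assigned reads; WT-TRAMP reads from the knockout tables) and were tested with edgeR 4.0.16 (quasi-likelihood) and DESeq2 1.42.0 as alternatives. Scripts were tested on simulated data. Other alternatives were pseudocounts of 5 and 0.5, no filter, a minimum mean of 50, TMM and upper-quartile scaling, array weights, robust empirical Bayes and leaving out each library; leaving out libraries with over 1% seminal vesicle reads, or libraries 17 and 18, was added after seeing the data. Counting limits cover counting error only. Members, gene lists and tests were chosen with earlier results of these data known. Named genes were the 7 members, list genes past the threshold, the most abundant gene of each pathway list, and the 10 protein-coding genes most like the members; others are said to be named after their values were seen. H2-D1, Cr2 and Xcr1 were not analysed here. Some results that these rules cover are not reported here.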

Additional observations from a re-analysis of the deposited data

How the results depend on the processing

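No paired analysis was possible because the table columns carry library numbers and no replicate number of the labels. Of 230 counts and medians recomputed, 221 stayed within 1.5 times of the count or within the spread between replicates. Of 928 values of single genes, 832 kept their direction and side of the threshold and 67 turned direction, given here as values or ranges. The number of members called at 30 weeks in KO-TRAMP went from 0 to 1 with DESeq2 and to 5 with array weights (H2-Aa, H2-Ab1, H2-Eb1 and Cd74 higher and H2-DMa lower, at -0.32), and to 3 with array weights both in A537T-TRAMP at 30 weeks and in its interaction with age, all higher. Array weights stopped short of their convergence tolerance and called 63.6% of all genes in KO-TRAMP at 30 weeks. They called 20.8% of all genes in A537T-TRAMP at 30 weeks and 10.3% in its interaction with age. The median of the members in KO-TRAMP at 30 weeks was 0.34 with array weights. It was 0.34 without libraries over 1% seminal vesicle reads, in a fit with 1 WT-TRAMP library. Without libraries 17 and 18 it was 0.77, in a fit with library 16 as the only KO-TRAMP library. It was between 0.29 (without library 16) and 0.66 (without library 17) when each library was left out. The median of the A537T-TRAMP interaction was -0.0076 without the seminal vesicle libraries, in a fit with 1 A537T-TRAMP library at each age. No member was called when any single library was left out. Without libraries over 1% seminal vesicle reads, A537T-TRAMP at 30 weeks could not be fitted, since 1 library a group remained, and at 10 weeks KO-TRAMP turned to -0.053 in H2-Aa, -0.22 in H2-Eb1, -0.069 in Cd74 and -0.11 in Ciita, while A537T-TRAMP turned to 0.18 in H2-Ab1, 0.10 in H2-DMa and 0.060 in H2-DMb1. That setting also turned H2-Ob to -0.00744 and Irf8 to 0.00013 in KO-TRAMP at 30 weeks, Ciita to 0.39 in the KO-TRAMP interaction, and in the A537T-TRAMP interaction H2-Aa to -0.0076, H2-Ab1 to -0.28, H2-Eb1 to -0.23, Cd74 to -0.037 and Ciita to 0.70. Without libraries 17 and 18, H2-DMa turned to 0.26, Creb1 to -0.071, Irf8 to 0.43 and Ctsd to 0.14 in KO-TRAMP at 30 weeks, and Ciita to 0.60 in its interaction. H2-DMa in A537T-TRAMP at 10 weeks turned to 0.045 in edgeR, 0.036 in DESeq2 and 0.21 with array weights. Array weights turned Ciita to -0.073 in KO-TRAMP at 30 weeks, Ciita to -0.19 and H2-DMb1 to -0.080 in A537T-TRAMP at 30 weeks, and H2-DMa to -0.017 in the KO-TRAMP interaction, where upper-quartile scaling gave -0.021. Irf8 turned to 0.00023 in edgeR, and Ciita in the KO-TRAMP interaction to 0.0030 in edgeR and 0.011 in DESeq2. With each library left out in turn, the KO-TRAMP changes at 10 weeks ran from -0.22 to 0.38 in H2-Aa, -0.38 to 0.15 in H2-Ab1, -0.22 to 0.27 in H2-Eb1, -0.083 to 0.33 in Cd74, -0.11 to 0.49 in Ciita and -0.38 to 0.031 in H2-DMa. In A537T-TRAMP at 10 weeks Ciita ran from -0.049 to 0.42 and H2-DMa from -0.28 to 0.32, and at 30 weeks Ciita ran from -0.12 to 0.28. In KO-TRAMP at 30 weeks Ciita ran from -0.23 to 0.40, Ctsd from -0.14 to 0.088 and Irf8 from -0.30 to 0.18. In the interactions Ciita ran from -0.40 to 0.29 in KO-TRAMP and from -0.31 to 0.16 in A537T-TRAMP, and H2-DMa from -0.21 to 0.19 in KO-TRAMP. The causes were not tested. With 3 libraries a group and 23 to 145 reads of Ciita per library, intervals of its changes span more than 1 on the log2 scale.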
